A study of Mus musculus with 20 samples.

Results

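The genes described here make cholesterol from acetyl-CoA, move it through the cell, or belong to the SREBP system that controls both. Of 31 listed symbols, 29 reached a value of 1 in 5 or more of the 20 libraries, as did 10890 of all 37748 entries in the table. Soat1, which esterifies cholesterol for storage, and Abca1, which exports it, did not pass. The 29 comprise 8 genes of the mevalonate steps, 12 of the steps from squalene to cholesterol, 5 of SREBP control and 4 of sterol transport. The symbols were listed by function, with earlier results of these data known, and the rule itself used only the minimum value.

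Gene expression was measured by RNA sequencing in CFU-E, the committed red cell progenitors of mouse bone marrow, sorted as live, lineage-negative cells high in c-Kit and positive for CD105. There were 4 groups of 5 libraries. P95H PHZ and P95H PBS came from Mx1-Cre mice with 1 copy of the Srsf2 P95H allele, a mutation of a splicing factor, given phenylhydrazine (PHZ) or saline (PBS). Mx1-Cre PHZ and Mx1-Cre PBS came from mice with the Cre transgene alone, so every group carried Mx1-Cre, whose promoter responds to interferon and acts in many cell types. PHZ lyses red cells, was given under the skin on day 0 and again on day 1 at 30 mg/kg, and the sort was on day 4. Ages, sexes and any induction of Cre were not stated in the sources used. The library names give every library a different animal number, so p-values rest on the spread between mice. The title of the series names mTORC1 signalling, a kinase pathway known to raise SREBP activity.

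Cells sense cholesterol in the membrane of the endoplasmic reticulum. When it is scarce, SCAP carries the SREBP proteins to the Golgi, where proteases release a fragment that enters the nucleus and switches on genes of cholesterol synthesis and uptake. When it is plentiful, INSIG proteins hold the SCAP and SREBP complex back. Dividing red cell progenitors need cholesterol for their membranes, and mature red cells cannot make it.

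Values are TPM-like, that is per gene length and library total, so levels can be set side by side between genes. The depth behind each value is unknown. All 12 erythroid markers passed the filter, with summed levels of 2481 to 4660 in P95H PHZ, 2771 to 3846 in P95H PBS, 2979 to 3759 in Mx1-Cre PHZ and 2756 to 3996 in Mx1-Cre PBS. Single markers moved with the treatment. Of the genes of the sort markers, Kit fell after PHZ with log2 fold changes of -0.77 in P95H and -0.80 in Mx1-Cre, and Eng, which encodes CD105, with -0.17 and -0.19. The transferrin receptor gene Tfrc rose by 0.75 in P95H and 0.89 in Mx1-Cre, and the transcription factor gene Tal1 by 0.39 and 0.58, while Gata1 and Klf1, also transcription factor genes, were called lower in P95H (log2 fold changes of -0.19 and -0.22) and not in Mx1-Cre (-0.11 and -0.0014). The difference between genotypes in the PHZ change was not called for any of the 12 (limma interaction, lowest adjusted p = 0.798). With P95H set directly against Mx1-Cre, 0 of 12 were called with PBS, with PHZ or averaged over treatments. The lowest adjusted p was then 0.0568 (limma, Klf1 with PHZ). With equal library totals the Eng, Gata1 and Klf1 calls were lost (limma adjusted p = 0.157 to 0.54), Eng in P95H was also lost with TMM factors (limma adjusted p = 0.0564), Klf1 with quantile normalization (limma adjusted p = 0.0641), and Gata1 was then called lower in Mx1-Cre too (limma adjusted p = 0.0329), a scaling check of markers added after seeing the data. All 12 granulocyte and monocyte markers passed too, although the gate removed lineage-positive cells. Their summed levels were 150.3 to 567 in P95H PHZ, 536 to 2358 in P95H PBS, 146 to 1029 in Mx1-Cre PHZ and 433 to 909 in Mx1-Cre PBS. After PHZ, 12 of 12 genes were called lower in P95H, with a median log2 fold change of -1.88. In Mx1-Cre 1 of 12 was called, with all 12 negative, a median of -0.99 and 5 at an unadjusted p under 0.05. Between genotypes 0 of 12 were called (limma, 3 at an unadjusted p under 0.05 with PBS and 0 with PHZ). Of 12 macrophage markers only Cd68 passed, and 3 or 4 were at 0 throughout each group. Of 6 lymphoid markers Ighm and Cd79a passed and fell after PHZ in both genotypes, Ighm with log2 fold changes of -1.88 in P95H and -1.42 in Mx1-Cre. Of 6 megakaryocyte markers Gp9 and Itga2b passed. Gp9 fell in both genotypes, with log2 fold changes of -0.57 in P95H and -0.92 in Mx1-Cre. Itga2b was called lower in Mx1-Cre, at -0.54, and stood at -0.28 in P95H (limma adjusted p = 0.0679). Between genotypes, Gp9 was called higher in P95H with PHZ, at 0.54 (limma adjusted p = 0.0399). Averaged over treatments it was called higher in P95H too, at 0.36 (limma adjusted p = 0.0316). The part of these marker changes in the results that follow was not tested, beyond the covariate of granulocyte and monocyte markers. In P95H the mean of those markers on the log2 scale was 2.66 to 4.11 with PHZ and 4.15 to 6.10 with PBS. Without overlap there, the covariate and the treatment cannot be fully told apart in P95H. In bulk RNA, fewer cells of a type and less RNA per cell cannot be told apart.

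**Figure D1:**
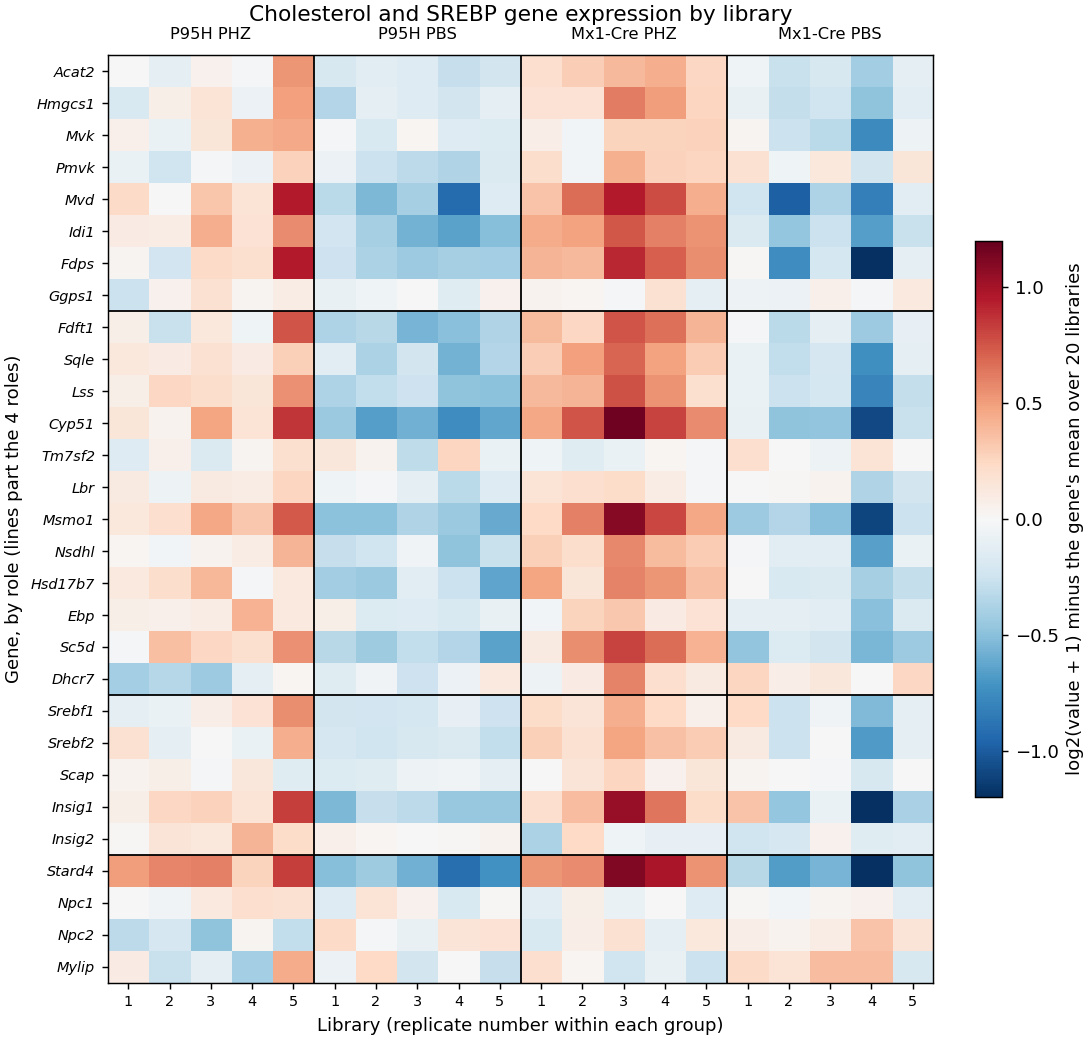
Level of each of the 29 genes (rows, by role) in each of the 20 libraries (columns, 5 per group), as log2(value + 1) minus the gene's mean over all libraries, with colours saturated at 1.2 in either direction. Most enzyme genes are red in both PHZ blocks and blue in both PBS blocks, while Ggps1, Tm7sf2, Npc1 and Insig2 stay pale. P95H PHZ library 5 and Mx1-Cre PHZ library 3 are the reddest columns, and Mx1-Cre PBS library 4 is the bluest.

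The first question was how PHZ changed these genes in control progenitors. In Mx1-Cre CFU-E, 20 of 29 genes rose after PHZ and 0 fell, where 17.0% of all entries were called higher and 14.9% lower. The median log2 fold change was 0.52 over the 29 genes and -0.0015 over all entries. In P95H CFU-E, 18 rose and 1 fell, where 12.6% of all entries were called higher and 17.7% lower, with medians of 0.31 and -0.015. Calls are limma tests of log2(value + 1) at a Benjamini-Hochberg adjusted p under 0.05 over all entries. Among the enzymes, 14 of 20 rose in P95H and 16 of 20 in Mx1-Cre. With every library scaled to the same total, the entries called higher and lower were 2656 and 1089 in P95H, against 1371 and 1923 as deposited, and 2225 and 1216 in Mx1-Cre, against 1856 and 1618 as deposited. The genes called higher were then 23 in P95H and 21 in Mx1-Cre.

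The mevalonate steps turn acetyl-CoA into the isoprenoids farnesyl and geranylgeranyl diphosphate. Of these 8 genes, 4 rose after PHZ in P95H and 6 in Mx1-Cre, with median log2 fold changes of 0.29 and 0.56. Mvd, the decarboxylase that yields isopentenyl diphosphate, had the largest change of the 8. It stood at 7.65, 6.42, 8.35, 7.28 and 13.4 in P95H PHZ and at 4.93, 4.10, 4.60, 2.90 and 5.64 in P95H PBS. In Mx1-Cre it stood at 8.38, 10.8, 13.3, 11.7 and 9.03 after PHZ and at 5.27, 2.76, 4.73, 3.19 and 5.79 after PBS. Every PHZ library lay above every PBS library of its genotype. The log2 fold change was 0.80 ± 0.19 (SE) in P95H (limma adjusted p = 0.00274) and 1.14 ± 0.19 in Mx1-Cre (limma adjusted p = 0.00013).

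Fdps, farnesyl diphosphate synthase, had the second largest change in Mx1-Cre and the third in P95H. It stood at 103, 86.3, 118, 115 and 196 in P95H PHZ, against 85.1, 77.2, 74.2, 76.6 and 75.7 in P95H PBS. The Mx1-Cre values were 134, 132, 190.3, 166 and 149 after PHZ, against 102, 59.7, 86.9, 42.98 and 93.2 after PBS. Neither pair of groups overlapped, but in P95H the lowest PHZ library and the highest PBS library lay close together. On the log2 scale the difference was 0.61 ± 0.21 in P95H (limma adjusted p = 0.039) and 1.05 ± 0.21 in Mx1-Cre (limma adjusted p = 0.00132). The P95H call was lost in 10 of 32 alternatives, with adjusted p up to 0.16. In the annotation 26.7% of its exon bases also belong to Gm43738 on the same strand, which was not analysed here. Idi1, the isomerase between these enzymes, rose by 0.74 in P95H and 0.93 in Mx1-Cre on the log2 scale, with means of 57.1, 33.6, 69.7 and 36.3 in P95H PHZ, P95H PBS, Mx1-Cre PHZ and Mx1-Cre PBS.

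The genes at the start of the route changed less. Acat2, which joins 2 acetyl-CoA units, rose by 0.29 in P95H and 0.52 in Mx1-Cre. Its P95H call was lost with the marker covariate, at 0.35 (limma adjusted p = 0.101), and without P95H PBS replicates 4 and 5, at 0.25 (limma adjusted p = 0.112). Reads of its close relative Acat3, not called in either comparison and at a mean of 10.6 against 42.2 for Acat2, could be split with it by the counting. Hmgcs1, which makes HMG-CoA, and Mvk, mevalonate kinase, rose in Mx1-Cre by 0.59 and 0.45. In P95H their log2 fold changes were 0.28 and 0.30 (limma adjusted p = 0.0593 and 0.0771). There Hmgcs1 was called higher in 5 of 32 alternatives, among them TMM factors, quantile normalization and equal library totals, and Mvk in 3. Pmvk, phosphomevalonate kinase, had log2 fold changes of 0.21 in P95H and 0.19 in Mx1-Cre and passed in neither. It was called higher in 1 of 32 alternatives in each genotype.

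Ggps1, which takes farnesyl diphosphate away from sterols to geranylgeranyl diphosphate, showed the smallest change of the 8. It stood at 14.2, 17.9, 19.7, 17.7 and 18.4 in P95H PHZ and 16.1, 16.5, 17.1, 15.4 and 17.8 in P95H PBS. Mx1-Cre libraries held 17.8, 17.6, 16.9, 19.6 and 15.7 after PHZ and 16.5, 16.3, 18.04, 16.98 and 18.8 after PBS. The groups overlapped throughout. Its log2 fold change was 0.071 in P95H (95% interval -0.083 to 0.22) and 0.013 in Mx1-Cre (95% interval -0.14 to 0.17). Its exons share 257 bases with Arid4b on the other strand, which had log2 fold changes of -0.21 in P95H (limma adjusted p = 0.0907) and -0.29 in Mx1-Cre (limma adjusted p = 0.0189). Whether counting used strand was not stated in the sources used.

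**Figure D2:**
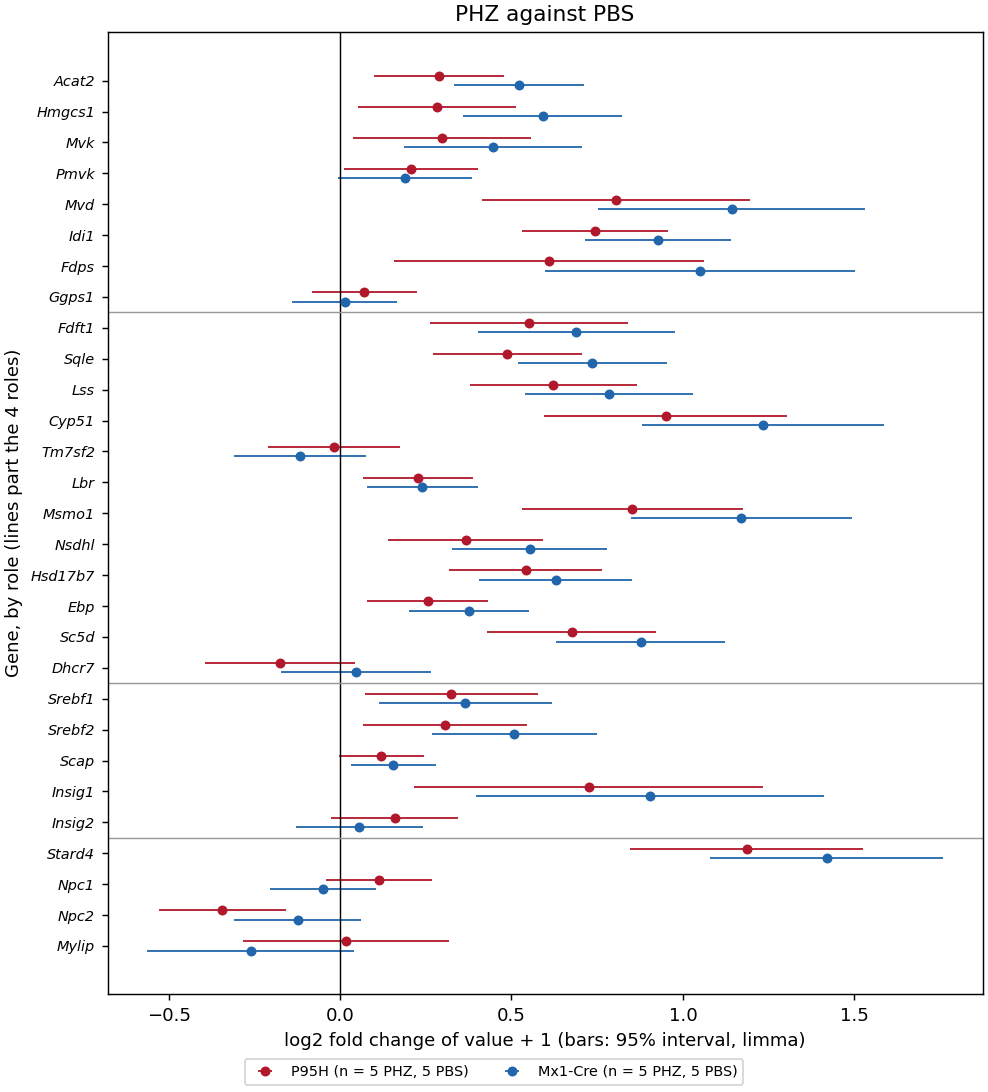
Log2 fold change of PHZ against PBS (horizontal axis, on value + 1) for each of the 29 genes in P95H (red) and Mx1-Cre (blue), with 95% limma intervals and 5 libraries per group. All but 4 blue points and 3 red points lie right of 0, and for 23 of the 29 genes the red point lies left of the blue one.

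The steps from squalene to cholesterol gave 10 of 12 genes higher after PHZ in each genotype, with a median log2 fold change of 0.51 in P95H and 0.66 in Mx1-Cre. Cyp51, the lanosterol demethylase, had the largest change. It stood at 24.8, 23.04, 31.4, 25.04 and 41.3 in P95H PHZ, against 16.1, 13.7, 14.6, 12.8 and 14.1 in P95H PBS. For Mx1-Cre the values were 31.1, 38.4, 51.1, 39.9 and 33.5 after PHZ, against 20.9, 15.7, 15.7, 9.99 and 18.3 after PBS. Neither pair of groups overlapped, and the PHZ mean was 2.04 times the PBS mean in P95H and 2.41 times in Mx1-Cre. The fitted log2 difference was 0.95 ± 0.17 in P95H (limma adjusted p = 0.000304) and 1.23 ± 0.17 in Mx1-Cre (limma adjusted p = 2.44e-05).

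Msmo1, the oxidase that starts the removal of methyl groups from the sterol ring, came next. It stood at 20.3, 21.3, 25.8, 23.3 and 31.4 in P95H PHZ, against 12.8, 12.8, 14.1, 13.3 and 11.7 in P95H PBS. The values in Mx1-Cre were 21.9, 28.5, 40.5, 32.9 and 25.8 after PHZ, against 13.3, 14.3, 12.7, 8.05 and 15.2 after PBS. All 10 PHZ libraries lay above all 10 PBS libraries. The log2 fold change was 0.85 ± 0.15 in P95H (limma adjusted p = 0.000335) and 1.17 ± 0.15 in Mx1-Cre (limma adjusted p = 1.38e-05).

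The other genes of these steps that rose came from along the whole route. Fdft1 (squalene synthase), Sqle (squalene epoxidase) and Lss (lanosterol synthase) rose by 0.55, 0.49 and 0.62 in P95H and by 0.69, 0.74 and 0.78 in Mx1-Cre. Sc5d, a late desaturase, rose by 0.68 and 0.88, and Hsd17b7 and Nsdhl, which work with Msmo1 in demethylation, by 0.54 and 0.37 in P95H and 0.63 and 0.55 in Mx1-Cre. Ebp, a sterol isomerase, rose by 0.26 and 0.38. For Fdft1, 18.3% of the exon bases lie opposite Ctsb, which was called in neither comparison. With the granulocyte and monocyte marker mean as a covariate, the Sqle and Lss calls in P95H were lost, at log2 fold changes of 0.39 and 0.46 (limma adjusted p = 0.118 and 0.0875). The Nsdhl call in P95H was lost with that covariate, at 0.34 (limma adjusted p = 0.206), and without P95H PBS replicates 4 and 5, at 0.29 (limma adjusted p = 0.111). The Ebp call in P95H was lost in 6 of 32 alternatives (adjusted p 0.0506 to 0.426), namely these and leaving out P95H PHZ 4 or P95H PBS 2, 3 or 4, with values of 0.18 to 0.24.

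Lbr and Tm7sf2 encode enzymes for the same reduction of the sterol ring, and Lbr is also a receptor of the nuclear envelope. Lbr was the most abundant of the 29 genes, with a mean of 218 over all libraries, against 9.30 for Tm7sf2. Lbr rose by 0.23 ± 0.078 in P95H (limma adjusted p = 0.0307) and 0.24 ± 0.078 in Mx1-Cre (limma adjusted p = 0.0225), the smallest of the called rises in both. The P95H call was lost in 8 of 32 alternatives, with a log2 fold change of 0.072 (limma adjusted p = 0.739) under the marker covariate, 0.16 (0.228) without P95H PBS replicates 4 and 5, and adjusted p 0.0508 to 0.0983 in the other 6, which were no filter and leaving out P95H PHZ 1, 3 or 5 or P95H PBS 4 or 5. In Mx1-Cre it was lost in 6 (adjusted p 0.0519 to 0.186), namely the covariate, quantile normalization and leaving out Mx1-Cre PHZ 2 or 3 or Mx1-Cre PBS 4 or 5. Tm7sf2 stood at 8.202, 9.69, 8.09, 9.48 and 10.7 in P95H PHZ and 10.2, 9.52, 7.30, 11.2 and 8.67 in P95H PBS. In Mx1-Cre it stood at 8.89, 8.25, 8.67, 9.39 and 9.07 after PHZ and 10.8, 9.22, 8.83, 10.4 and 9.23 after PBS, so its groups overlapped in both genotypes. On the log2 scale the difference was -0.017 in P95H (limma adjusted p = 0.908) and -0.12 in Mx1-Cre (limma adjusted p = 0.367). It shares 532 exon bases with Vps51 on the same strand, which fell by 0.20 in Mx1-Cre on the log2 scale.

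Dhcr7, the reductase of the last step, was the other gene of the 12 that passed in neither PHZ comparison. It stood at 26.5, 27.6, 25.8, 32.7 and 35.98 in P95H PHZ and 31.8, 34.4, 29.5, 33.6 and 38.3 in P95H PBS. The Mx1-Cre values were 33.7, 38.01, 54.04, 40.8 and 38.2 after PHZ and 42.3, 37.4, 38.9, 35.3 and 42.1 after PBS. The log2 fold change of PHZ was -0.18 ± 0.11 in P95H (limma adjusted p = 0.217) and 0.047 ± 0.11 in Mx1-Cre (limma adjusted p = 0.772).

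Among the 5 genes of SREBP control, Srebf1, Srebf2 and Insig1 rose in both genotypes, and Scap and Insig2 passed in neither. Srebf2 encodes the SREBP that mainly drives cholesterol genes. It stood at 54.4, 44.4, 47.8, 45.4 and 65.3 in P95H PHZ, against 41.6, 40.4, 41.8, 42.3 and 38.97 in P95H PBS. Mx1-Cre libraries held 58.8, 54.4, 67.1, 61.5 and 59.5 after PHZ, against 51.6, 39.9, 48.2, 29.5 and 44.4 after PBS. No PHZ library overlapped the PBS libraries of its genotype. Its log2 fold change was 0.31 ± 0.12 in P95H (limma adjusted p = 0.0492) and 0.51 ± 0.12 in Mx1-Cre (limma adjusted p = 0.00226). The P95H call was lost in 20 of 32 alternatives (adjusted p 0.0506 to 0.224).

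Srebf1 encodes SREBP-1, which mainly drives fatty acid genes. It stood at 79.5, 80.7, 90.2, 96.6 and 126 in P95H PHZ and 73.3, 72.7, 73.6, 80.02 and 71.99 in P95H PBS. For Mx1-Cre the values were 99.6, 95.4, 116, 101 and 89.4 after PHZ and 101, 71.3, 82.9, 58.8 and 78.96 after PBS. The groups overlapped in both genotypes, narrowly in P95H and through PBS library 1 in Mx1-Cre. The fitted log2 difference was 0.32 ± 0.12 in P95H (limma adjusted p = 0.0482) and 0.36 ± 0.12 in Mx1-Cre (limma adjusted p = 0.0265). The call was lost in 20 of 32 alternatives in P95H (adjusted p 0.0534 to 0.314) and in 6 in Mx1-Cre (0.0526 to 0.0924), among them leaving out Mx1-Cre PHZ 3, PBS 2 or PBS 4.

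Insig1 and Insig2 encode the retention proteins, and Insig1 is itself a well-known SREBP target. Insig1 stood at 18.7, 21.3, 21.8, 20.1 and 32.4 in P95H PHZ, against 11.95, 14.5, 14.1, 12.7 and 12.8 in P95H PBS. The values in Mx1-Cre were 20.7, 23.3, 37.8, 28.3 and 20.9 after PHZ, against 22.8, 12.6, 16.8, 5.93 and 13.4 after PBS. The groups did not overlap in P95H and did in Mx1-Cre, where PBS library 1 lay above 2 PHZ libraries and PBS library 4 lay lowest. The log2 fold change was 0.73 ± 0.24 in P95H (limma adjusted p = 0.0299) and 0.90 ± 0.24 in Mx1-Cre (limma adjusted p = 0.00852). The P95H call was lost in 7 of 32 alternatives, with adjusted p up to 0.364. The Mx1-Cre call was lost with the compared groups alone (limma adjusted p = 0.0531).

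Insig2 stood at 12.9, 14.3, 14.1, 17.3 and 15.1 in P95H PHZ and 13.3, 12.97, 12.7, 12.9 and 13.2 in P95H PBS. In Mx1-Cre it stood at 9.60, 15.3, 12.3, 11.9 and 11.8 after PHZ and 10.7, 10.96, 13.3, 11.5 and 11.6 after PBS. The log2 fold change of PHZ was 0.16 ± 0.089 in P95H (limma adjusted p = 0.184) and 0.055 ± 0.089 in Mx1-Cre (limma adjusted p = 0.677). Insig2 was called higher after PHZ in P95H in 1 of 32 alternatives, that of equal library totals. Scap, the escort protein, stood at 42.3, 43.03, 40.5, 45.3 and 36.97 in P95H PHZ and 36.5, 36.99, 39.4, 39.9 and 37.8 in P95H PBS. The Mx1-Cre values were 41.1, 45.9, 49.3, 42.5 and 45.4 after PHZ and 41.9, 41.3, 40.8, 35.8 and 41.1 after PBS, with 4 of 5 PHZ libraries above every PBS library of their genotype in both. Its log2 fold change was 0.12 ± 0.06 in P95H (limma adjusted p = 0.134) and 0.16 ± 0.06 in Mx1-Cre (limma adjusted p = 0.0516). Scap was called higher in 2 of 32 alternatives in P95H and in 5 in Mx1-Cre.

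Of the transport genes, Stard4 had the largest PHZ change of all 29. It encodes a soluble sterol carrier and is a known SREBP target. It stood at 47.3, 50.3, 50.9, 39.9 and 59.6 in P95H PHZ, against 22.95, 24.4, 21.9, 17.2 and 19.7 in P95H PBS. Mx1-Cre libraries held 48.2, 49.6, 72.5, 66.4 and 48.5 after PHZ, against 26.1, 20.5, 22.2, 12.5 and 23.5 after PBS. All 10 PHZ libraries lay above all 10 PBS libraries, and the mean after PHZ was 2.34 times that after PBS in P95H and 2.72 times in Mx1-Cre. On the log2 scale the difference was 1.19 ± 0.16 in P95H (limma adjusted p = 2.07e-05) and 1.42 ± 0.16 in Mx1-Cre (limma adjusted p = 3.08e-06).

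Npc1 and Npc2 encode the pair that passes cholesterol out of lysosomes. Npc1 stood at 9.34, 9.03, 10.2, 10.9 and 10.7 in P95H PHZ and 8.29, 10.5, 9.67, 8.11 and 9.40 in P95H PBS. For Mx1-Cre the values were 8.44, 9.82, 8.76, 9.26 and 8.25 after PHZ and 9.44, 9.09, 9.59, 9.71 and 8.46 after PBS. Its groups overlapped, and the log2 fold change was 0.11 in P95H and -0.051 in Mx1-Cre (limma adjusted p = 0.26 and 0.641). Npc2, described because it was the 1 gene of the 29 that fell after PHZ, stood at 107, 116, 94.98, 136 and 108 in P95H PHZ, against 156, 131, 125, 148 and 151 in P95H PBS. The values in Mx1-Cre were 117, 141, 152, 123 and 145 after PHZ and 141, 137, 141, 169 and 149 after PBS. In P95H, 4 of 5 PHZ libraries lay below every PBS library. Its log2 fold change was -0.34 ± 0.09 in P95H (limma adjusted p = 0.00584) and -0.12 ± 0.09 in Mx1-Cre (limma adjusted p = 0.313). The granulocyte and monocyte markers fell in the same comparison, and with their mean as a covariate the P95H value was -0.30 (limma adjusted p = 0.177). Without P95H PBS replicates 4 and 5, where those markers were highest, it was -0.29 (limma adjusted p = 0.0593).

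Mylip encodes a ligase that degrades lipoprotein receptors and, like Abca1, is a target of the sterol sensor LXR. Mylip stood at 4.56, 3.30, 3.83, 2.90 and 6.07 in P95H PHZ and 3.93, 5.13, 3.47, 4.19 and 3.27 in P95H PBS. In Mx1-Cre it stood at 4.96, 4.26, 3.38, 3.88 and 3.35 after PHZ and 5.07, 4.83, 5.70, 5.71 and 3.54 after PBS. The groups overlapped, and the log2 fold change was 0.018 in P95H and -0.26 in Mx1-Cre (limma adjusted p = 0.942 and 0.181). Abca1 was below 1 in all 20 libraries and was not tested. It stood at 0.173, 0.236, 0.329, 0.246 and 0.244 in P95H PHZ, 0.164, 0.266, 0.256, 0.262 and 0.143 in P95H PBS, 0.307, 0.193, 0.190, 0.166 and 0.104 in Mx1-Cre PHZ and 0.415, 0.302, 0.246, 0.874 and 0.223 in Mx1-Cre PBS. Soat1 did not exceed 0.472 in any library.

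**Figure D3:**
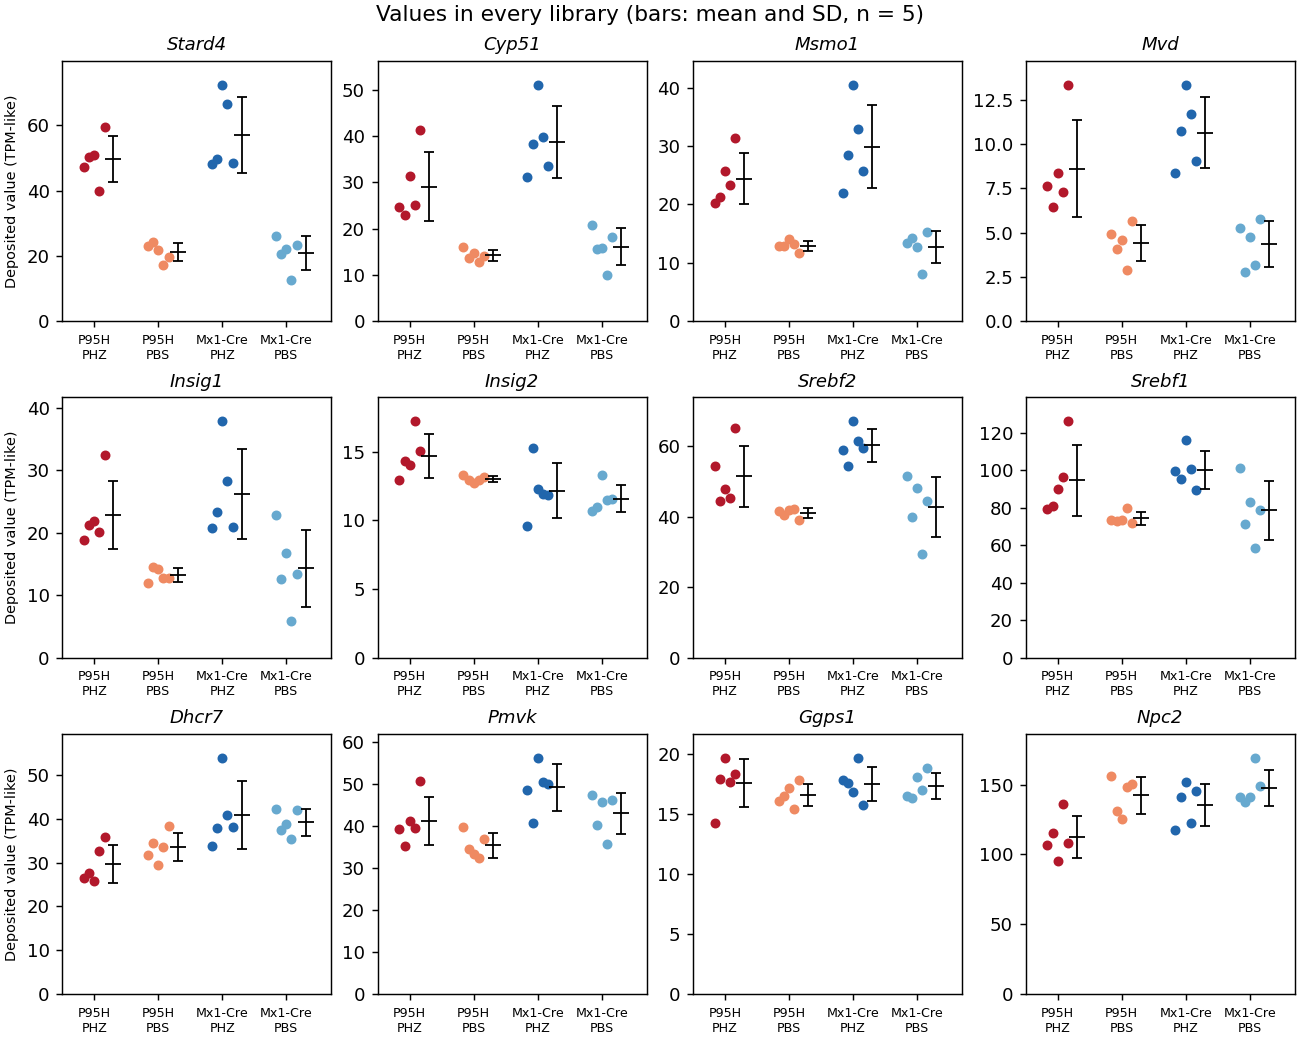
Deposited value (vertical axis, TPM-like, from 0) of 12 genes in every library, with the mean and SD of the 5 libraries beside each group. Stard4, Cyp51, Msmo1 and Mvd are higher after PHZ in both genotypes with no overlap, Ggps1 and Insig2 overlap between treatments, and Dhcr7 and Pmvk lie lower in P95H than in Mx1-Cre.

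Counted by overlap, all 5 PHZ libraries lay above all 5 PBS libraries for 15 of 29 genes in P95H, where 7.59% of all entries did so, and for 16 of 29 in Mx1-Cre, where 12.6% did. The count of called genes in P95H moved more than that in Mx1-Cre under the alternatives tried. With the marker mean as a covariate, 8 genes rose in P95H and 18 in Mx1-Cre, with median log2 fold changes of 0.35 and 0.54. In P95H that marker mean did not overlap between treatments, so a lost call there does not show that a change was absent. Without P95H PBS replicates 4 and 5, 10 rose in P95H. Leaving out P95H PBS replicate 4 alone gave 12, the lowest count with 1 library left out. The 8 genes called in P95H under every alternative were Cyp51, Fdft1, Hsd17b7, Idi1, Msmo1, Mvd, Sc5d and Stard4, and 17 were called in Mx1-Cre under every alternative.

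Promoters are shown because most of these genes moved together, and SREBP is known to act on its sites beside NF-Y and SP1. RefSeq promoters (GRCm38.p6, 250 bases before to 50 after the start) were given for 24 of the 29 genes and searched on both strands. TCACNCCAC, a sterol regulatory element, was in 1 of 24 genes (4.17%), against 1.38% of the 8261 tested genes with a promoter. CCAAT, the NF-Y box, was in 22 of 24 (91.7%), against 44.3%, and was in neither Acat2 nor Scap. GGGCGG, the SP1 box, was in 22 of 24 (91.7%), against 70.1%, and was in neither Pmvk nor Ggps1. CCAAT stood in 15 of the 16 genes that rose in Mx1-Cre and in 7 of the 8 that did not pass, and GGGCGG in 16 of 16 and 6 of 8. A gene was counted if any of its promoters held the motif, and 5 genes had more than 1 promoter. These were Dhcr7, Insig2, Pmvk and Scap, which did not pass, and Srebf1, which rose, so the counts are not like for like. None of the 3 motifs is contained in another. A match is a description and does not show binding. Only these exact words were searched, so sterol elements of other forms were not counted. No promoter was given for Fdps, Fdft1, Sqle, Stard4 or Npc1. The 250 bases before the start follow for Hmgcs1, which holds the sterol element, for Mvd and Sc5d, which rose in both genotypes, and for Mylip, which passed in neither, with every match to the 3 motifs in capitals.
Hmgcs1 (chr13:119690101-119690350, plus strand): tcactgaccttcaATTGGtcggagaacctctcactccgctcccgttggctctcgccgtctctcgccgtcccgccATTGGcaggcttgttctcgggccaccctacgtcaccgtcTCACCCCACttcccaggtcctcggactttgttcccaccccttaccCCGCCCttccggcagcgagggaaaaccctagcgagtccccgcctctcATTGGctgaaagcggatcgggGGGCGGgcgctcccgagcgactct
Mvd (chr8:122443423-122443672, minus strand): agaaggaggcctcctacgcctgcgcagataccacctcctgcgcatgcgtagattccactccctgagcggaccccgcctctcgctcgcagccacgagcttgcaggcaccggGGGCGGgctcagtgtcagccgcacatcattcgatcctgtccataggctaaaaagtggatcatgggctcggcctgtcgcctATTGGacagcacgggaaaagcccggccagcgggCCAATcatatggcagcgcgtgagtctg
Sc5d (chr9:42264301-42264550, minus strand): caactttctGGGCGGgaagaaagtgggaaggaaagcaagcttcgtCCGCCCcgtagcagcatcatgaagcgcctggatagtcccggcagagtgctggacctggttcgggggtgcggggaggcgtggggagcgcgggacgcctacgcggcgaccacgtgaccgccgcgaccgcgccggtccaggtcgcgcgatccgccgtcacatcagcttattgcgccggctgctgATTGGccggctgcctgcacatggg
Mylip (chr13:45389492-45389741, plus strand): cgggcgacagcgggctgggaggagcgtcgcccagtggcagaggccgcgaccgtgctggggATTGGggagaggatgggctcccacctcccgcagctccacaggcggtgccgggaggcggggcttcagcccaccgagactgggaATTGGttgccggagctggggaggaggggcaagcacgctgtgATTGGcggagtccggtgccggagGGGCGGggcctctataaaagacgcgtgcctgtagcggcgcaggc
In Hmgcs1 the sterol element TCACCCCAC lies 137 bases before the start, between NF-Y boxes on either side. Mvd and Sc5d hold NF-Y and SP1 boxes, and so does Mylip.

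The next question was whether P95H progenitors differed from Mx1-Cre progenitors. With PBS, 0 of 29 genes were called in either direction (limma, 2 at an unadjusted p under 0.05), where 0.358% of all entries were called higher and 1.12% lower. The median log2 fold change was -0.049 over the 29 genes and -0.028 over all entries. The median of the 29 was 0.0065 with quantile normalization, -0.11 without Mx1-Cre PBS replicate 4, 0.0018 without Mx1-Cre PBS replicate 1, and 0.015 without P95H PBS replicates 4 and 5. It was -0.023 without Mx1-Cre PBS replicate 3, -0.024 without P95H PBS replicate 4, -0.022 with TMM factors and -0.028 without P95H PBS replicate 5. With PHZ, 0 were called higher and 1 lower, where 1.1% of entries were called higher and 4.37% lower, so that these counts are near those shares. Of the 29 genes, 23 had a negative log2 fold change and 12 had an unadjusted p under 0.05, where 67.6% of all entries were negative and 21.5% had such a p. That count of 12 was 4 with equal library totals (1637 of 10890 entries), 7 with quantile normalization (1763 entries), 7 without Mx1-Cre PHZ replicate 3 and 18 without P95H PHZ replicate 5. The median was -0.24 over the 29 genes and -0.054 over all entries. With TMM factors these medians were -0.18 and -0.00081, and the entries called higher and lower were 154 and 187, against 120 and 476 as deposited. The corresponding calls were 129 and 163 with quantile normalization and 139 and 123 with equal library totals.

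Dhcr7 was the 1 gene called after PHZ. From the values given above it averaged 29.7 ± 4.42 in P95H PHZ and 40.97 ± 7.74 in Mx1-Cre PHZ (SD, n = 5 each), with 4 of 5 P95H libraries below every Mx1-Cre library. It averaged 33.5 ± 3.26 in P95H PBS and 39.2 ± 3.02 in Mx1-Cre PBS, again with 4 of 5 below. On the log2 scale P95H differed by -0.44 ± 0.11 after PHZ (limma adjusted p = 0.0163) and -0.22 ± 0.11 after PBS (limma adjusted p = 0.345). The call after PHZ was lost with quantile normalization, equal library totals, the compared groups alone, or P95H PHZ replicate 3 left out (adjusted p 0.0541 to 0.0729). Without P95H PHZ replicate 5, 5 of the 29 genes were called lower after PHZ, and without P95H PHZ replicate 3, 0 were.

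Averaged over both treatments, 1 gene was higher in P95H and 2 were lower, where 2.66% of all entries were called higher and 7.88% lower. The lower ones were Dhcr7, at -0.33 ± 0.075 on the log2 scale (limma adjusted p = 0.0061), and Pmvk. Pmvk stood at 39.3, 35.2, 41.2, 39.6 and 50.6 in P95H PHZ, against 48.5, 40.6, 56.3, 50.6 and 49.9 in Mx1-Cre PHZ. After PBS it stood at 39.7, 34.6, 33.4, 32.3 and 36.97 in P95H, against 47.4, 40.3, 45.6, 35.7 and 46.1 in Mx1-Cre. Under each treatment 3 of 5 P95H libraries lay below every Mx1-Cre library. The averaged log2 fold change was -0.26 ± 0.067 (limma adjusted p = 0.0146). Insig2 was the higher one, at 0.21 ± 0.063 (limma adjusted p = 0.0351), and its call was lost in 11 of 31 alternatives (adjusted p 0.0501 to 0.0808). Without Mx1-Cre PBS replicate 4, 8 genes were called lower in this average, without P95H PHZ replicate 5, 5, and without Mx1-Cre PHZ replicate 2, 4.

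Sqle was the 1 gene whose groups did not overlap after PHZ, and it is described for that reason. It stood at 51.9, 51.00, 54.2, 51.00 and 58.2 in P95H PHZ, against 58.6, 67.3, 77.99, 66.8 and 59.1 in Mx1-Cre PHZ. Downward separation of this kind was seen for 5.38% of all entries, so that 1 of 29 genes is near that share. The log2 difference was -0.30 ± 0.10 (limma adjusted p = 0.0996).

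**Figure D4:**
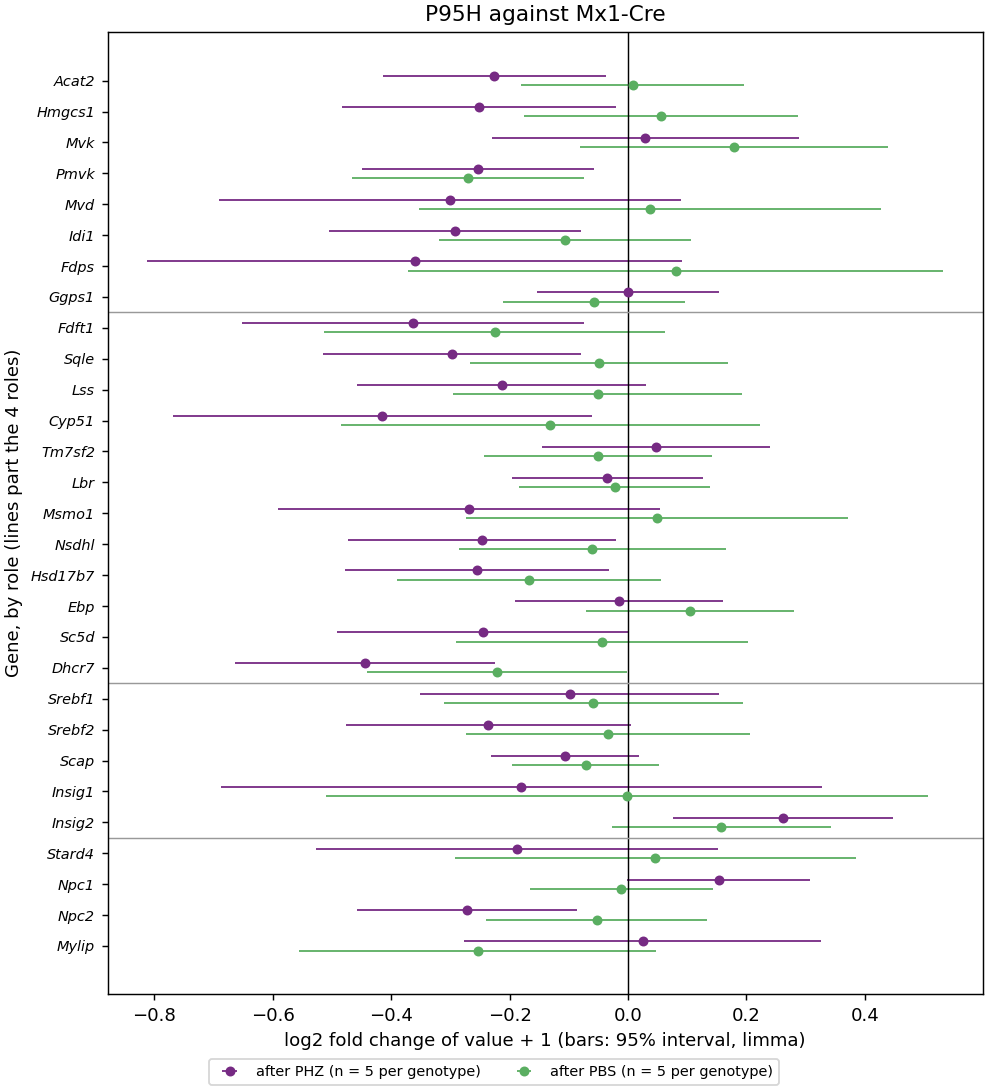
Log2 fold change of P95H against Mx1-Cre (horizontal axis, on value + 1) for the 29 genes after PHZ (purple) and after PBS (green), with 95% limma intervals and 5 libraries per group. After PHZ, 23 points lie left of 0 and Dhcr7 lies farthest left at -0.44, while after PBS most points lie nearer 0.

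Whether the PHZ response itself differed between genotypes was tested as an interaction. None of the 29 genes was called, and neither was any of the 10890 entries (limma, 0 of 29 genes and 577 entries at an unadjusted p under 0.05, lowest adjusted p = 0.798). Of the 29 interaction values 23 were negative, with a median of -0.18, while 57.7% of all entries were negative, with a median of -0.027. Without Mx1-Cre PBS replicate 4 the median of the 29 was -0.067 and 10 were positive, and with equal library totals it was -0.12 and 9 were positive. The largest was -0.44 ± 0.30 for Fdps, with a 95% interval of -1.08 to 0.20. For Hmgcs1 the value was -0.31 (-0.64 to 0.019), for Cyp51 -0.28 (-0.78 to 0.22) and for Stard4 -0.23 (-0.71 to 0.25). These intervals hold 0, a smaller response in P95H and a larger one.

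In some libraries most of the 20 enzyme genes lay on the same side of their group mean, and in others they were split. In P95H PHZ library 5, 18 of 20 lay above their group mean, with a median deviation of 0.30 on the log2 scale. In Mx1-Cre PHZ library 3, 18 of 20 did, with a median of 0.24, and in library 4 18 did, with a median of 0.089. In Mx1-Cre PBS library 4, 1 of 20 lay above its group mean, with a median of -0.28. In P95H PHZ library 1, 1 of 20 did as well, with a median of -0.14. Split libraries included P95H PHZ library 3, with 11 of 20 above, P95H PBS library 2, with 9, and Mx1-Cre PBS library 2, with 8. Medians over all entries stayed within -0.017 and 0.022. In P95H PBS the libraries lay closest together, between 5 and 14 of 20 above the mean, and Insig1 had an SD of 1.07 there, against 6.16 in Mx1-Cre PBS. Granulocyte and monocyte marker means in these libraries, on the log2 scale, were 4.11 in P95H PHZ 5, 2.98 in Mx1-Cre PHZ 3 and 4.81 in Mx1-Cre PBS 4, and their part in the deviations was not tested.

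**Figure D5:**
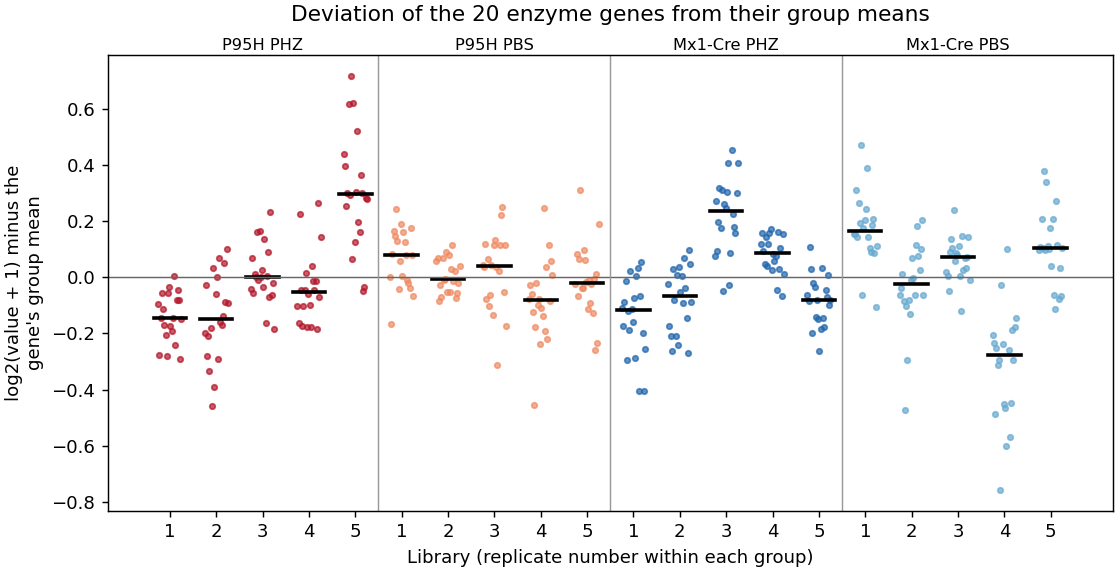
Deviation of each of the 20 enzyme genes (points) from its own group mean in log2(value + 1) (vertical axis), by library (horizontal axis, 5 per group), with the median as a black bar. P95H PHZ library 5 has the highest median (0.30) and Mx1-Cre PBS library 4 the lowest (-0.28).

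Other genes of the system were followed as 4 lists. Of 12 genes for SREBP proteases and for turnover of INSIG and sterol enzymes, 2 rose after PHZ in P95H and 6 in Mx1-Cre, with 0 lower, where 12.6% and 17.0% of all entries were called higher. The P95H count is near that share. The largest rises in Mx1-Cre were those of Tmem97, a sterol-responsive membrane protein, at 0.65 and Mbtps2, the site-2 protease, at 0.41 on the log2 scale. In P95H, Mbtps2 rose by 0.39, while Tmem97 was at 0.25 (limma adjusted p = 0.219). Averaged over treatments, 1 of the 12 was called lower in P95H, near the 7.88% of all entries called lower there. It was Mbtps1, the site-1 protease, at -0.13 (limma adjusted p = 0.018).

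Of 15 tested genes of fatty acid synthesis and handling, among 16 listed, 11 rose in each genotype and 0 fell, with a median log2 fold change of 0.56 in P95H and 0.71 in Mx1-Cre. Over all entries 12.6% were called higher and 17.7% lower in P95H, and 17.0% and 14.9% in Mx1-Cre. Fabp5, a fatty acid binding protein, averaged 669.6 ± 55.6 in P95H PHZ and 54.7 ± 8.25 in P95H PBS (SD, n = 5 each). In Mx1-Cre it averaged 652 ± 70.8 after PHZ and 48.8 ± 10.7 after PBS. Its log2 fold change was 3.60 in P95H and 3.74 in Mx1-Cre, above that of every cholesterol gene. Scd2, a desaturase, rose by 1.82 in P95H and 1.95 in Mx1-Cre. The smallest called rises in Mx1-Cre were those of Acly, which supplies acetyl-CoA, at 0.43 (0.29 in P95H), and Gpam, a glycerol-phosphate acyltransferase, at 0.23 (0.25 in P95H).

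Of 13 tested genes of sterol uptake, esters, transfer and LXR, among 17 listed, 2 rose and 0 fell in P95H, and 3 rose and 3 fell in Mx1-Cre. The rises are near the 12.6% of all entries called higher in P95H and the 17.0% in Mx1-Cre, and the falls in Mx1-Cre are near its 14.9% called lower. Lrp8, a lipoprotein receptor, averaged 14.8 ± 1.86 in P95H PHZ and 7.07 ± 0.569 in P95H PBS, and 16.7 ± 1.75 and 6.90 ± 1.63 in Mx1-Cre PHZ and Mx1-Cre PBS (SD, n = 5 each). Its log2 fold change was 0.97 in P95H (limma adjusted p = 4.48e-06) and 1.19 in Mx1-Cre (limma adjusted p = 3.62e-07). Scarb1, the receptor for high-density lipoprotein, rose in Mx1-Cre by 0.30 and was at 0.16 in P95H (limma adjusted p = 0.0982). Gramd1c, a sterol transfer protein, and Lipa, the lysosomal lipase, fell in Mx1-Cre, with log2 fold changes of -0.52 and -0.30. In P95H they were at -0.31 and -0.15 (limma adjusted p = 0.0542 and 0.313).

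Of 13 genes that use isoprenoids for prenylation, dolichol or ubiquinone, 4 rose in P95H and 3 in Mx1-Cre, where 12.6% and 17.0% of all entries were called higher, so that the Mx1-Cre count is near that share. Pggt1b, a subunit of a protein prenyltransferase, averaged 28.7 ± 3.51 in P95H PHZ and 16.6 ± 2.37 in P95H PBS, and 29.1 ± 3.52 and 16.7 ± 1.51 in Mx1-Cre PHZ and Mx1-Cre PBS (SD, n = 5 each). It rose by 0.76 in P95H and 0.76 in Mx1-Cre. Zmpste24, a protease of prenylated proteins, rose by 0.53 and 0.43, and Nus1, a subunit of the dolichol-making transferase, by 0.35 and 0.30. Averaged over treatments, 1 of these 13 genes and 1 of the 15 fatty acid genes were called lower in P95H. Both counts are near the 7.88% of all entries called lower there. The genes were Dhdds, the catalytic partner of Nus1, at -0.12 (limma adjusted p = 0.0312), and Gpam, at -0.19 (limma adjusted p = 0.016). Calls in the 4 further lists were not followed under the alternatives.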

How the data were processed

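CFU-E from 20 mice were sequenced as read pairs, per the labels' protocols. The submitters' processing notes list mouse build names (mm10, GRCm38), human ones (GRCh37, hg19) and the tools TopHat, TopHat2 2.0.8b, Bowtie and RSEM 1.2.4, without their roles. The authors deposited normalised expression signal. In each library every value divided by 1 factor (0.940 to 1.10) was a whole multiple of 0.01 (tolerance 0.01 of a step, 100% of values), the form of TPM times a library factor of unstated origin. The signal holds no counts, so no interval that needs depth is given.

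Symbols and positions came from GENCODE vM21 (GRCm38), with 35986 of 37748 entries named. Values were analysed as log2(value + 1), which understates changes of low genes. Entries of at least 1 in at least 5 libraries were kept. limma 3.58.1 (R 4.3.3) fitted 1 mean per group over 20 libraries with trended, robust moderation. Tests were two-sided and adjusted over 10890 entries. Figures used matplotlib 3.10.9. Fits were tested on simulated data. Of 100 genes changed by 0.5 on the log2 scale, 52% were recovered in the interaction. In the other comparisons 80% to 93% were recovered. Changes of 1 were also simulated in 100 genes, and 91% of these were recovered in the interaction. With the deposited values the interaction called 0 of 10890 entries, and its median over the 29 genes was -0.18. Adjustment is stricter where few entries change, so the 52% does not give the chance of calling changes of that size there.

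The genes and lists were chosen with earlier results of these data known. Values in every library are given for the 2 largest and 1 smallest changes after PHZ in Mx1-Cre of each role, for genes called between genotypes, and for Srebf1, Srebf2, Insig1, Insig2, Scap and Abca1. Of the 4 further lists, the 2 largest and 2 smallest called changes are named, except where a gene is not reported here. Npc2 and Sqle were added after their values were seen, as were the expressed genes as background for motifs.

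Alternatives were TMM factors (computed with 30% of log ratios and 5% of mean levels trimmed at each end), quantile normalization, equal totals, pseudocounts of 0.1 and 5, a stricter filter and none, plain moderation, compared groups alone, the marker mean as a covariate, a replicate block, and left-out libraries. Replicate numbers do not name shared animals, and the labels name no batch.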

Additional observations from a re-analysis of the deposited data

Results flagged for a closer look

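In 10 of 116 sets of 5 libraries, 1 library stood apart from the others by the Dixon criterion at 5 samples (0.71), where chance gives about 1 in 20, or 5.8 sets. P95H PHZ library 5 was the highest of its group for Acat2 (60.4, next 43.0), Mvd (13.4, next 8.35), Nsdhl (34.2, next 27.4) and Insig1 (32.4, next 21.8). P95H PHZ library 4 was the highest for Ebp (72.5, next 58.7). P95H PBS library 1 was the highest for Fdps (85.1, next 77.2), and P95H PBS library 4 for Srebf1 (80.02, next 73.6). Mx1-Cre PBS library 4 was the lowest of its group for Nsdhl (15.95, next 23.3), Ebp (37.8, next 47.7) and Scap (35.8, next 40.8). Without P95H PHZ library 5, 14 of the 29 genes rose after PHZ in P95H, against 18 with it. Without Mx1-Cre PBS library 4, 18 rose after PHZ in Mx1-Cre, against 20 with it.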

How the results depend on the processing

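No called value changed sign in any of 32 alternatives (31 for the averaged comparison and for Hsd17b7). Of 62 results on single genes, 39 kept their side of the threshold in all alternatives that tested the gene. Of the 20 genes higher after PHZ in Mx1-Cre, 17 kept the call throughout, and Lbr, Srebf1 and Insig1 did not. Of the 19 called in P95H, 8 kept it. With the marker covariate, entries called after PHZ were 951 in P95H (3294 in the fit as reported) and 2286 in Mx1-Cre (3474), and genes called in P95H were 8 higher and 0 lower. Without P95H PBS replicates 4 and 5, 2100 entries and 10 genes higher and 0 lower were called after PHZ in P95H, and 98 entries between genotypes with PBS. Between genotypes with PBS, 161 entries were called, 78 with the compared groups alone and 90 to 180 with 1 library left out. With PHZ, 596 entries were called, 341 with TMM, 292 with quantile normalization, 262 with equal totals, 345 with the compared groups alone and 319 to 696 with 1 library left out. Genes called lower with PHZ were then 0 with quantile normalization, equal totals or the compared groups alone. With 1 library left out they were 0 to 5, and those called higher 0 to 1. Averaged over treatments, 749 entries were called with equal totals (1148), and 0 genes higher with the marker covariate or without P95H PBS replicates 4 and 5. With 1 library left out, 0 to 1 genes were higher and 2 to 8 lower. The interaction called 1 entry with no filter and 0 as reported. The cause was not tested.

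The library names give every library its own animal number, so the replicate numbers do not name shared animals. Of 30 same-numbered pairs, 13 correlated over 0.1 (-0.31 to 0.44). Differently numbered pairs were not compared, so these correlations cannot decide whether numbers pair libraries. With the replicate block, 17 genes rose and 1 fell after PHZ in P95H, 20 rose and 0 fell in Mx1-Cre, 0 were higher and 1 lower in P95H with PHZ, and 1 higher and 3 lower averaged. The splits of higher and lower entries averaged over treatments were 408 and 427 with TMM and 353 and 396 with equal totals, against 290 and 858 as deposited. Between genotypes with PBS they were 52 and 80 with TMM and 39 and 122 as deposited.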
